A study of Mus musculus with 6 samples.

Results

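Oxidative phosphorylation is carried out in the inner mitochondrial membrane by complexes I, III and IV, which pass electrons from NADH to oxygen and pump protons, and by complex V, the ATP synthase, which uses the proton gradient to make ATP. Complex II feeds electrons in from succinate and pumps no protons. A few core subunits are encoded by mitochondrial DNA, and all others are encoded in the nucleus, so the cell has to make the products of many dispersed genes in matched amounts. Neurons draw most of their ATP from this pathway once they mature, and the newborn brain is in the course of that change.

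The nuclear-encoded subunits were taken from the deposited count table by symbol, as every row beginning with Ndufa, Ndufb, Ndufc, Ndufs or Ndufv and a number, with Uqcr, with Cox followed by a number from 4 to 8 and a letter from a to c, or with Atp5. This rule found 78 of the 24391 symbols, 37 for complex I, 8 for complex III, 16 for complex IV and 17 for complex V. It uses no measured value. The rule takes in a few genes whose products are not plain subunits of the complex their symbol names. Ndufa4 carries a complex I name although its product is found with complex IV, Cox7a2l encodes a factor that joins complexes into supercomplexes, and RefSeq now lists Atp5sl as Dmac2, a name for an assembly factor of complex I. It also misses some subunits, such as Ndufab1, Cyc1 and Cox4i1, which are described separately.

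The RNA came from hemibrains taken on postnatal day 0, from 3 pups labelled Celf2 -/- (null, pups 2, 4 and 10) and 3 labelled Celf2 +/- (heterozygous, pups 6, 7 and 11). CELF2 is an RNA-binding protein that regulates splicing and other steps of RNA processing. The control pups keep 1 Celf2 allele, and no wild-type pups were compared. The labels give no litter, sex, strain or batch, so each p-value reflects only how far these 6 samples vary. In a whole hemibrain, fewer cells of a type and less RNA per cell cannot be told apart.

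Total counts ranged from 28831997 to 36531980 per library. The subunit genes took 0.639 to 0.831% of each library's counts. The lowest share was in null pup 2, where the ribosomal RNA precursor Rn45s held 11.8% of the counts against 0.194 to 1.27% elsewhere. With Rn45s left out, null pup 2 was still lowest, at 0.725% against 0.746 to 0.842% elsewhere. Celf2 itself did not separate the labelled groups at the level of the whole gene, with a level, in read counts scaled to the library total (CPM), of 408 ± 48.5 CPM (SD, n = 3) in heterozygous and 390 ± 58.4 CPM in null hemibrains (two-sided exact permutation p = 0.7, where 0.1 is the smallest value that 3 against 3 allows), and the whole-gene count therefore does not check the labels. Neuronal markers (Tubb3, Snap25, Syt1, Map2, Stmn2, Rbfox3) were present in every library, and 4 of the 6 had a negative fold change. Their summed levels were 5228 to 5981 CPM in heterozygous and 5385 to 5780 CPM in null hemibrains. The radial glia and astrocyte list, of which 4 of 6 genes had a negative fold change, summed to 1348 to 1690 CPM in heterozygous and 1348 to 1523 CPM in null hemibrains. Hindbrain Hox genes, which mark tissue posterior to the forebrain, summed to 21.1, 189 and 10.6 CPM in heterozygous pups 6, 7 and 11. In null pups 2, 4 and 10 they summed to 3.74, 7.08 and 3.40 CPM. Pup 7 was by far the highest, and heterozygous pups 6 and 11 were also above every null pup. All 8 tested were negative with none called. In 6 of the 8 (75%) every null library was below every heterozygous one, against 6.47% of all genes tested. The part of these lists in the subunit values was not tested.

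Levels between genes were compared per length, as TPM, the count divided by the deposited gene length and scaled to the same total in every library. Of the 78 symbols, 61 had a mean of at least 100 TPM over the 6 libraries and 12 were below 30 TPM. The median was 193 TPM in complex I, 300 TPM in complex III, 259 TPM in complex IV and 327 TPM in complex V. The highest of the 78 was Atp5b, which encodes the catalytic beta subunit of the ATP synthase, at 1597 ± 114 TPM (SD over 6 libraries). Atp5a1, for the partner alpha subunit, followed at 971 ± 75.7 TPM. Atp5g3, for the membrane c-ring, stood at 920 ± 80.1 TPM. Each SD includes shifts that genes of the same library share, so it does not test the order of genes close in level. In complex IV, Cox6b1 had 857 ± 50.7 TPM and Cox6a1 853 ± 60.6 TPM, which are close, and their order was not tested. Ndufa4 led the complex I names at 842 ± 80.7 TPM and Uqcrh, the hinge protein of complex III, led its complex at 490 ± 43.7 TPM.

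In the null hemibrains nearly every subunit gene was slightly below the heterozygous mean, and no gene passed the test. Of 74 tested genes, 72 had a negative log2 fold change (null minus heterozygous) and 2 had a positive one, Ndufb4 and Cox7a1. The median was -0.09, that is, 93.8% of the heterozygous level, with quartiles of -0.13 and -0.06. Over all 15925 genes tested, 50.3% were negative and the median was -0.00, with quartiles of -0.10 and 0.11. None of the 74 was called by edgeR's quasi-likelihood test at a Benjamini-Hochberg adjusted p under 0.05, and the lowest adjusted p was 0.702, for Ndufs6. That test called 1 gene of 15925, which is 0.00628%. The gene called was Proz, named here after its value was seen, at 4.70 against 1.27 CPM. At an unadjusted p under 0.05, 2 subunit genes were lower, Ndufs6 and Cox7a2, and 0 were higher. The same unadjusted threshold takes 2.93% of all genes in the lower direction, close to the 2 of 74 seen here. DESeq2's Wald test called 62 of 20163 genes (0.307%) and 0 of the 74, with a lowest adjusted p of 0.851, for Ndufs6.

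**Figure D1:**
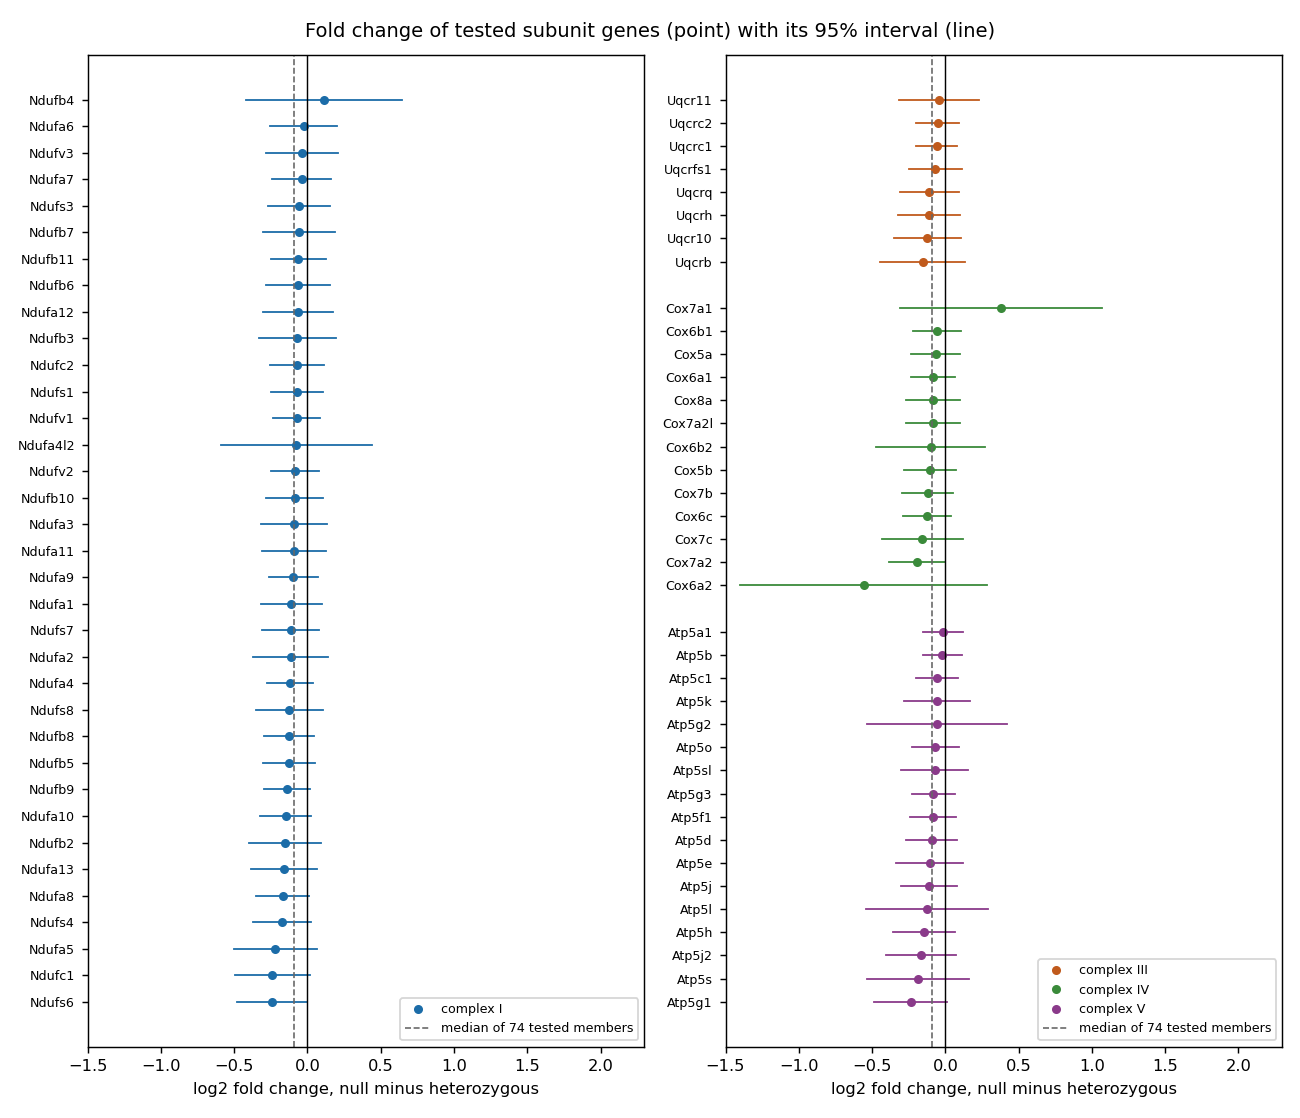
Log2 fold change between null and heterozygous hemibrains (horizontal axis) for 73 of the 74 tested subunit genes, with the 95% interval from edgeR's fit, by complex. Of the 73 points 71 lie left of 0, close to the dashed median of all 74 at -0.09, and 71 of the intervals include 0.

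The size of the shift was bounded well for most genes. The 95% interval of the fold change included 0 for 72 of the 74 and lay within 1.5-fold either way for 70, of which 47 lay within 1.25-fold. The 4 wider intervals belonged to Ndufa4l2, Ndufb4, Cox6a2 and Cox7a1, all at low counts. The 4 complexes did not stand apart from each other. The median fold change was -0.09 in complex I (35 of 36 negative), -0.09 in complex III (8 of 8), -0.10 in complex IV (12 of 13) and -0.08 in complex V (17 of 17). Without heterozygous pup 6 these medians were -0.05, -0.03, -0.07 and -0.02, and without pup 11 they were between -0.17 and -0.15.

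Summed over all 78 genes, the level was 8167, 7836 and 7182 CPM in heterozygous pups 6, 7 and 11, and 7262, 7439 and 7309 CPM in null pups 2, 4 and 10. Heterozygous pups 6 and 7 were above all null pups, and heterozygous pup 11 was below all of them. The means were 7728 ± 502 and 7337 ± 91.6 CPM (SD, n = 3), and the difference was smaller than the spread among the heterozygous pups. By complex, pups 6 and 7 were again above every null pup, and pup 11 was below every null pup in all but complex IV, where it was above null pup 10. Complex I summed to 2582, 2474 and 2246 CPM in the heterozygous pups and 2262, 2282 and 2266 CPM in the null pups. Complex IV summed to 1196, 1118 and 1035 CPM and to 1052, 1055 and 1025 CPM. Complex III gave 886, 838 and 773 CPM against 791, 792 and 785 CPM, and complex V gave 3503, 3406 and 3129 CPM against 3157, 3309 and 3233 CPM.

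The same pattern held gene by gene. Each gene's log2 CPM was set against its own mean over the 6 libraries, and the median deviation of the 74 genes was 0.15 in heterozygous pup 6, 0.07 in pup 7 and -0.07 in pup 11. In null pups 2, 4 and 10 it was -0.05, -0.03 and -0.06. Pup 6 was the highest library for 60 of the 74 genes and pup 11 the lowest for 34. Pup 6 was above every null library for 67 genes and pup 7 for 59, whereas pup 11 was above every null library for 10 and below every one for 34. These counts were not made over all genes tested, so they have no background share. The median deviation over all 15925 genes lay between -0.0025 and 0.0075 in every library. The median within-group coefficient of variation of the subunit genes was 8.46% in heterozygous and 3.96% in null libraries, against 9.52% and 10.8% over all genes tested. That comparison was not matched for level, as the median was 66.2 CPM in the subunit genes and 22.7 CPM over all genes tested. The null pups were thus alike in these genes, and the heterozygous pups were spread on both sides of them. Without heterozygous pup 6 the median fold change of the 74 genes was -0.04 with 59 negative, and without pup 11 it was -0.15 with 73 negative.

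**Figure D2:**
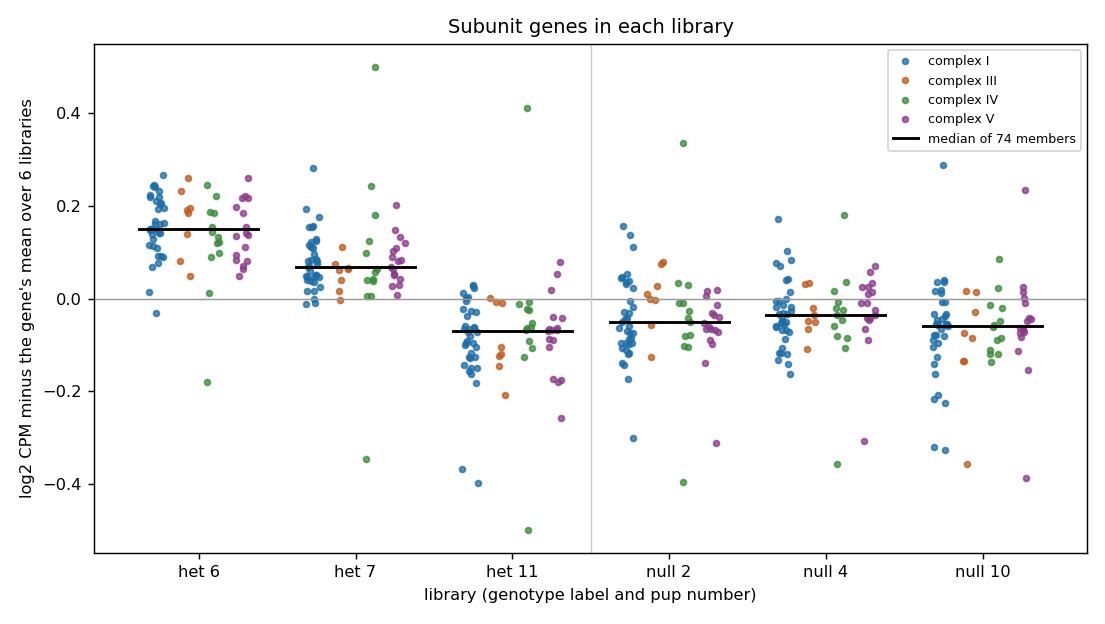
Deviation of each subunit gene's log2 CPM from its mean over the 6 libraries (vertical axis), by library and complex, with the median of 74 genes as a line. Heterozygous pups 6 and 7 lie above 0, at medians of 0.15 and 0.07, while heterozygous pup 11 lies at -0.07, next to the null pups.

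In 9 of the 74 genes (12.2%) every null library was below every heterozygous one, and 0 had the opposite order. Over all genes tested, 6.47% had groups that did not overlap in the lower direction and 6.21% in the opposite one. Among genes under 1000 bases these shares were 10.1% and 2.17%, and among mitochondrial ribosomal protein genes 13.0% and 0%. The 9 were Ndufa1, Ndufa8, Ndufb5, Ndufb9 and Ndufs7 of complex I, Cox5b, Cox6c and Cox7a2 of complex IV, and Atp5g1 of complex V. Their fold changes ran from -0.24 for Atp5g1 to -0.10 for Cox5b.

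Complex I takes electrons from NADH through 7 nuclear-encoded core proteins that hold the flavin and the iron-sulfur clusters, surrounded by accessory subunits that stabilise it. The core genes, among them Ndufv1, Ndufs1 and Ndufs8, all had negative fold changes, with a median of -0.07 and the lowest, -0.12, in Ndufs8. None was called. Of the 27 accessory genes tested 26 were negative, with a median of -0.10, and none was called. Ndufs6, an accessory subunit of the NADH-binding arm, had the lowest fold change of the complex. It stood at 53.3, 51.5 and 42.6 CPM in heterozygous pups 6, 7 and 11 and at 43.7, 41.8 and 39.0 CPM in null pups 2, 4 and 10. Null pup 2 lay above heterozygous pup 11, so the groups overlapped. The means were 49.1 ± 5.76 and 41.5 ± 2.39 CPM (SD, n = 3), a log2 fold change of -0.24 (SE 0.11, edgeR unadjusted p = 0.0454, adjusted p = 0.702).

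Ndufc1, a small subunit of the membrane arm, stood at 34.8, 32.2 and 27.5 CPM in heterozygous and 26.6, 28.5 and 24.9 CPM in null pups. Its groups overlapped through null pup 4 (log2 fold change -0.24, SE 0.12, edgeR adjusted p = 0.731). Ndufa8, an accessory subunit imported into the intermembrane space, was at 82.4, 79.8 and 72.5 CPM in heterozygous and 66.9, 70.7 and 71.0 CPM in null pups. The groups did not overlap, and the log2 fold change was -0.17 (SE 0.08, edgeR adjusted p = 0.731). Ndufa4, the highest of the complex I names, had 163, 153 and 144 CPM against 136, 144 and 144 CPM, a log2 fold change of -0.12 (SE 0.07) with groups that met at heterozygous pup 11.

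Ndufa4l2 is a paralog of Ndufa4 that is known as a gene induced by hypoxia and as a marker of pericytes. It was at 3.79, 4.01 and 2.48 CPM in heterozygous and 3.66, 3.47 and 2.62 CPM in null pups, with groups that overlapped fully. Of the summed TPM of the pair, Ndufa4 held 98.6 to 99.1% in every library. The pericyte list (Rgs5, Pdgfrb, Kcnj8, Abcc9, Cspg4, Notch3, Higd1b, Vtn) summed to 237 to 278 CPM in heterozygous and 228 to 277 CPM in null libraries, and 3 of its 8 genes were negative. Ndufb4, a membrane-arm subunit, had the only positive fold change of complex I. It was at 2.85, 2.42 and 1.88 CPM in heterozygous and 1.97, 2.76 and 2.99 CPM in null pups, a difference of 0.11 on the log2 scale (SE 0.24) that lay within the spread of both groups and was -0.03 without heterozygous pup 11.

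Complex III passes electrons from ubiquinol to cytochrome c. The genes of its 2 core proteins, Uqcrc1 and Uqcrc2, and of the Rieske iron-sulfur protein, Uqcrfs1, had fold changes between -0.07 and -0.05. The 5 small subunits had a median of -0.11. Uqcrb, whose product sits near the ubiquinone site, was lowest, at 27.2, 25 and 24.0 CPM in heterozygous and 25.3, 24.5 and 18.7 CPM in null pups. Only null pup 10 was below the heterozygous range (log2 fold change -0.15, SE 0.13), and without that pup the log2 fold change was -0.03. Uqcrh was at 109, 103 and 86.0 CPM against 97.0, 91.8 and 86.7 CPM, so every null pup lay inside the heterozygous range. Uqcr11 was at 46.5, 38.7 and 33.6 CPM against 40.9, 37.9 and 36.6 CPM, and its log2 fold change of -0.04 (SE 0.12) became 0.09 without heterozygous pup 6.

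Complex IV reduces oxygen to water, and several of its small subunits exist as isoforms that differ between tissues. The 9 genes of the widely expressed forms had a median fold change of -0.10, and all 9 were negative with none called. Cox7a2, the form of subunit 7a found in most tissues, was at 113, 105 and 92.8 CPM in heterozygous and 91.6, 91.5 and 89.2 CPM in null pups. Every null pup was below every heterozygous one, although heterozygous pup 11 was nearly at the null level. The means were 104 ± 10.1 and 90.7 ± 1.38 CPM, a log2 fold change of -0.19 (SE 0.09, edgeR unadjusted p = 0.0465, adjusted p = 0.704). Cox7a2l was at 129, 114 and 108 CPM against 105, 113 and 112 CPM, with overlapping groups. Cox6b1, the highest of the 16 complex IV symbols, was at 169, 158 and 145 CPM against 157, 148 and 149 CPM. All null pups lay inside the heterozygous range, and the fold change was -0.06 (SE 0.07). Cox6a1 was at 176, 169 and 155 CPM against 159, 158 and 156 CPM, and Cox8a at 151, 136 and 123 CPM against 128, 134 and 125 CPM. In both genes the null pups were again inside the heterozygous range. Cox7b was at 92.2, 92.1 and 85.4 CPM against 88.1, 80.1 and 79.8 CPM, with null pup 2 above heterozygous pup 11.

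The isoforms known from heart and skeletal muscle (Cox6a2, Cox7a1, Cox8b) and from testis (Cox6b2, Cox7b2, Cox8c) were low or at 0. Cox6a1 held 99.7 to 99.8% of the summed TPM of its pair, Cox6b1 held 97.5 to 97.9%, Cox7a2 held 97.7 to 98.8%, Cox7b held 99.8 to 100% and Cox8a held 99.9 to 100%. Cox6a2 had the lowest fold change of all subunit genes, at 0.377, 0.640 and 0.598 CPM in heterozygous and 0.315, 0.326 and 0.442 CPM in null pups. Heterozygous pup 6 lay inside the null range, and the log2 fold change of -0.56 carried an SE of 0.38. Cox7a1 had the highest fold change, at 0.995, 0.640 and 0.570 CPM against 1.06, 0.948 and 0.884 CPM. Heterozygous pup 6 again lay inside the null range (log2 fold change 0.38, SE 0.31, edgeR adjusted p = 0.879). These muscle isoforms thus pointed in opposite directions, and neither passed. Of 11 tested muscle markers, such as Myh7, Acta1 and Mylpf, 10 had a negative fold change with a median of -0.34, and none was called. The 15 muscle genes summed to 57.7 to 61.8 CPM in heterozygous and 50.6 to 55.9 CPM in null libraries, of which Ryr1 alone made up 39.1 and 37.1 CPM on average. Their part in the values of Cox6a2 and Cox7a1 was not tested.

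Cox6b2 was the most abundant of the testis isoforms, at 4.73, 5.05 and 4.07 CPM in heterozygous and 4.14, 4.39 and 4.39 CPM in null pups, with null values inside the heterozygous range. Cox7b2 had 12 reads in all 6 libraries together, Cox8b had 3 and Cox8c had 0. A count of 0 allows up to 0.0821 to 0.104 CPM in these libraries, a limit that covers counting error only. No fold was computed for these genes. Of the germ cell markers, 3 of 6 were tested and all 3 were negative, with sums of 4.59 to 5.29 CPM in heterozygous and 2.24 to 4.24 CPM in null libraries.

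Complex V consists of a catalytic head (F1) turned by a central stalk, a membrane ring of c subunits, and a peripheral stalk that holds the head still. The 5 head and central-stalk genes had a median fold change of -0.06. Atp5b was at 1118, 1090 and 1024 CPM in heterozygous and 1030, 1094 and 1061 CPM in null pups. Atp5a1 was at 869, 866 and 802 CPM against 799, 856 and 856 CPM. In these, the most abundant of the 78 genes, the groups overlapped almost completely, and the fold changes were -0.02 (SE 0.06) for each. The peripheral-stalk genes (Atp5f1, Atp5h, Atp5j, Atp5o) had a median of -0.10 and the 3 membrane genes Atp5j2, Atp5k and Atp5l a median of -0.13, with none called.

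The c subunit is made from 3 genes whose mature proteins are identical and whose targeting sequences differ. Atp5g3 held 88.7 to 90.7% of their summed TPM, Atp5g1 8.30 to 10.3% and Atp5g2 0.788 to 1.01%. Atp5g1 had the lowest fold change of complex V, at 35.0, 31.6 and 31.8 CPM in heterozygous and 24.3, 29.9 and 29.2 CPM in null pups. The groups did not overlap, and null pup 2 was lowest (log2 fold change -0.24, SE 0.11, edgeR adjusted p = 0.728). Without that pup the log2 fold change was -0.15. Its share of the 3 genes' TPM was 10.0 ± 0.50% in heterozygous and 9.04 ± 0.666% in null pups. Atp5g3 was at 251, 251 and 230 CPM against 221, 233 and 237 CPM, with overlap through heterozygous pup 11. Atp5g2 was at 2.56, 2.36 and 1.82 CPM against 2.13, 2.13 and 2.21 CPM, with every null pup inside the heterozygous range.

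Subunit genes are short, and short transcripts as a whole shifted in the same direction. The tested subunit genes had a median length of 670 bases, against 2893 bases for all genes tested, and 51 of 74 were under 1000 bases. Among all genes under 1000 bases the median fold change was -0.06 with 65.3% negative. From 1000 to 2000 bases it was -0.05 with 63.7% negative, and from 2000 to 4000 bases it was -0.00 with 50.4% negative. Among genes over 4000 bases it was 0.05 with 36.8% negative. The 325 other genes under 1000 bases with at least 20 CPM, a level like that of most subunits, had a median of -0.06 with 77.2% negative. Their median deviations were 0.15, 0.04 and -0.09 in heterozygous pups 6, 7 and 11 and 0.01, -0.02 and -0.07 in null pups 2, 4 and 10. The high value in heterozygous pup 6 and the low value in pup 11 were also seen in these 325 genes. Null pup 2 was lower in the subunit genes than in them. The 325 leave out only the 78 symbols, so pathway genes that the symbol rule missed can be among them. An offset that removes the trend with length in each library moved the subunit median to -0.03 and left 54 of 74 negative. Within the pathway, the 51 genes under 1000 bases had a median of -0.11 and the 23 longer ones -0.07, and all 23 longer genes were negative. Most of these 23 were under 2000 bases. Across the 74 genes, fold change and length had a Spearman correlation of 0.17 and, on log2 length, a Pearson correlation of 0.04. Across all 15925 genes the Spearman correlation was 0.23. The genes share the 6 libraries, so these are descriptions without a p.

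**Figure D3:**
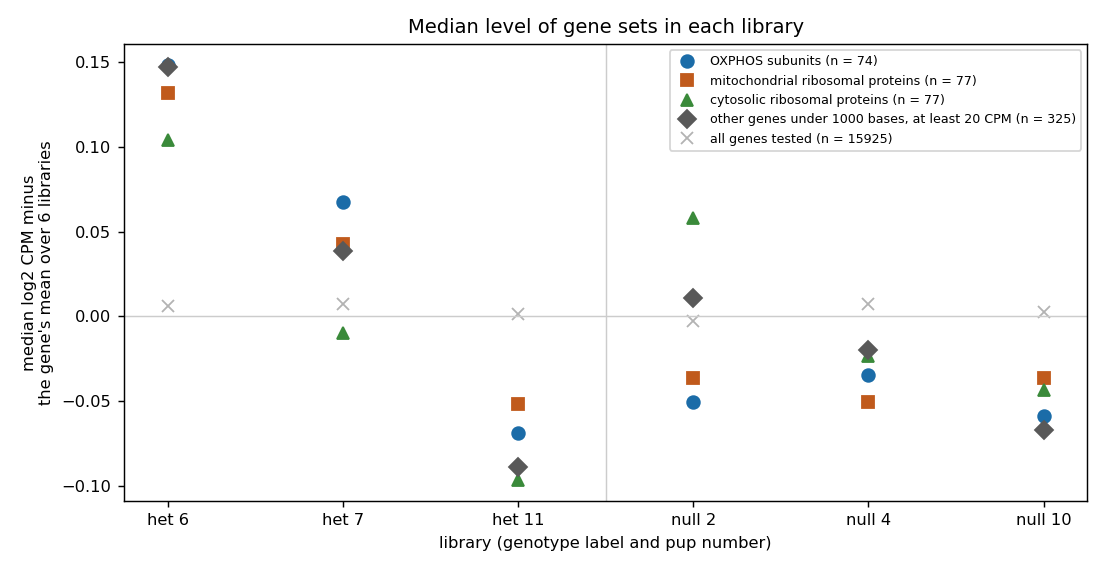
Median over each gene set of log2 CPM minus the gene's mean over the 6 libraries (vertical axis), by library. The subunit genes and the 325 other short genes both stand at 0.15 in heterozygous pup 6 and at -0.07 and -0.09 in heterozygous pup 11.

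**Figure D4:**
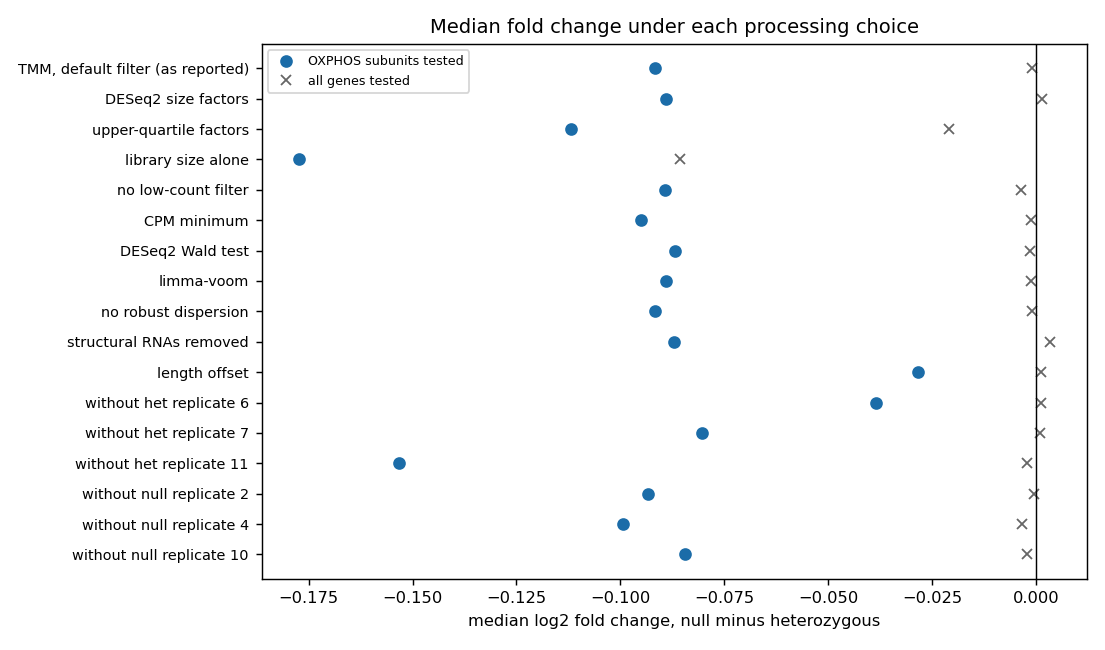
Median log2 fold change (horizontal axis) of the tested subunit genes and of all genes tested, under each way of scaling, filtering or testing and without each library. The subunit median ranges from -0.18, with library size alone, to -0.03, with the length offset, and stays left of 0.

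The ribosomal protein genes were set beside the subunit genes without matching for level or length. The 77 mitochondrial ribosomal protein genes, which serve the translation of the mitochondrially encoded subunits, had a median fold change of -0.07 with 62 negative. The 77 tested cytosolic ribosomal protein genes had a median of -0.00 with 41 negative. The mitochondrial list ran from -0.27 for Mrpl13 to 0.09 for Mrpl36 and the cytosolic list from -0.28 for Rpl5 to 0.15 for Rpl11. No gene of either list was called. In null pup 2 the cytosolic list had a median deviation of 0.06, against -0.04 for the mitochondrial list and -0.05 for the subunits.

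The other genes of the pathway gave 0 calls as well. The 4 genes of complex II, Sdha to Sdhd, were all negative with a median of -0.03, from -0.10 for Sdhd to -0.01 for Sdha. The subunits that the symbol rule missed had a median of -0.11 over 8 tested genes. Cox4i1, the main form of the largest nuclear-encoded subunit of complex IV, was at 1107 ± 91.6 TPM, above every member but Atp5b. It stood at 315 ± 13.7 CPM in heterozygous and 289 ± 8.78 CPM in null pups, without overlap (log2 fold change -0.12, SE 0.07, edgeR adjusted p = 0.766). Cyc1, the cytochrome c1 of complex III, was at 151 ± 17.4 and 141 ± 3.19 CPM with overlap (log2 fold change -0.10, SE 0.09). Among these genes, Cycs, which encodes somatic cytochrome c, had the lowest value, at 8.32 ± 0.539 CPM in heterozygous and 6.57 ± 0.409 CPM in null pups, without overlap (log2 fold change -0.34, SE 0.15, edgeR adjusted p = 0.682). Ndufab1, the mitochondrial acyl carrier protein, had the highest, at 0.02. Assembly factors had medians of -0.10 for complex I (10 of 14 negative), -0.07 for complex III (6 of 6), -0.04 for complex IV (16 of 20) and -0.02 for complex V (2 of 3). The complex I factors ran from -0.27 for Tmem126b to 0.03 for Ecsit and those of complex III from -0.29 for Lyrm7 to -0.01 for Ttc19. The complex IV factors had Cox20 lowest at -0.21, and those of complex V ran from -0.05 for Tmem70 to 0.02 for Atpaf2. Taco1, a translational activator of a mitochondrially encoded complex IV subunit, had the highest value among the complex IV factors, at 8.45 ± 0.744 and 10.0 ± 0.238 CPM without overlap (log2 fold change 0.24, SE 0.14, edgeR adjusted p = 0.797).

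Genes of the tricarboxylic acid cycle and pyruvate dehydrogenase had a median of -0.02 with 14 of 18 negative, and carriers of ATP and metabolites a median of -0.09 with 9 of 10 negative. The carriers ran from -0.20 for Ckmt1, the mitochondrial creatine kinase, to 0.01 for the ADP/ATP carrier gene Slc25a5, and Dlat was lowest of the cycle list at -0.14. Idh2, the mitochondrial isocitrate dehydrogenase that makes NADPH, had the highest value of its list, at 58.2 ± 3.50 and 67.7 ± 6.03 CPM (log2 fold change 0.22, SE 0.09, edgeR adjusted p = 0.685). The 19 regulators of mitochondrial biogenesis, such as Nrf1, Gabpa, Yy1 and Ppargc1a, were mixed, with a median of 0.04, 11 positive and 8 negative, the highest being Pprc1 at 0.16. Within them Ppargc1b, a coactivator of mitochondrial genes, was lowest, at 4.03 ± 0.339 and 3.32 ± 0.299 CPM without overlap (log2 fold change -0.28, SE 0.18, edgeR adjusted p = 0.833). The mitochondrially encoded subunits were not analysed here.

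Many promoters of nuclear subunit genes are known to hold sites for NRF1, for ETS factors such as GABP, and for YY1. RefSeq promoters of the build GRCm38.p6, from 250 bases before to 50 bases after the transcript start, were matched for 66 of the 78 symbols. They were searched on both strands for an NRF1 core (GCGCATGC), an ETS core (CCGGAAG) and a YY1 core (AAGATGGC). The NRF1 core was in 13.6% of the subunit promoters, 5.3% of those of other tested genes and 3.0% of all promoters. The YY1 core was in 16.7%, 4.5% and 3.2%, and the ETS core in 21.2%, 17.3% and 9.9%. By complex, the YY1 core was in 7 of 32 complex I and 4 of 16 complex V promoters and in 0 of 5 and 0 of 13 of complexes III and IV. A match is a run of letters and no evidence of binding, and an NRF1 core is nearly its own reverse complement, so 1 site can match on both strands with the matches overlapping.

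The sequences shown are from named genes at either end of the fold changes or levels of their complex, each as 30 bases on the gene's own strand, 5′ to 3′, with the core or its reverse complement in capitals. The first 3 are from complex I genes among the 5 members with the smallest p, with the YY1 core 33 and 22 bases after the start in Ndufs6 and Ndufc1 and the NRF1 core 8 bases before it in Ndufa8. Uqcr11 had the highest fold change of complex III, Uqcrh and Cox6b1 the highest levels of their complexes, Cox6a1 a level close to that of Cox6b1, and Atp5g2 the lowest level of complex V.
Ndufs6 (YY1, chr13:73328433-73328462, minus strand): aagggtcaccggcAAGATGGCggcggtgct
Ndufc1 (YY1, chr3:51408915-51408944, minus strand): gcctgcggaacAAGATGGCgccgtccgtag
Ndufa8 (NRF1, chr2:36049328-36049357, minus strand): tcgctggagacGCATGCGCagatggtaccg
Uqcr11 (NRF1, chr10:80406807-80406836, minus strand): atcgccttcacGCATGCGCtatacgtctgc
Uqcrh (ETS, chr4:116075062-116075091, minus strand): agtatgccgcaCTTCCGGccaggtcgccgg
Cox6a1 (NRF1, chr5:115349102-115349131, minus strand): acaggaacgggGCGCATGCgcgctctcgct
Cox6b1 (ETS, chr7:30626124-30626153, minus strand): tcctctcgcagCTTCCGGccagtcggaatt
Atp5g2 (NRF1, chr15:102671071-102671100, minus strand): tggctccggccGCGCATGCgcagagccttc

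Among the genes shown, those with the NRF1 core ranged in level from 9.53 TPM for Atp5g2 to 853 TPM for Cox6a1. The level of Atp5g2 is uncertain, as described below. Neither levels nor fold changes were compared by core over all members. Ndufs6 and Ndufc1, which hold the YY1 core, were at 224 and 197 TPM with fold changes of -0.24 each, and were named for their small p. The other members with this core had fold changes from -0.17 for Ndufs4 to -0.07 for Atp5sl. Uqcr11 holds both the NRF1 and the ETS core and had a fold change of -0.04.

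Some obligate subunits were listed at levels far below their partners in the same complex. Ndufs5, an accessory subunit of complex I, had 1 read in all 6 libraries together, where the complex had a median of 193 TPM. Ndufb4 was at 15.4 TPM. In complex V, Atp5l, the g subunit of the membrane part, was at 23.7 TPM, while Atp5k and Atp5j2, for its neighbours e and f, were at 569 and 553 TPM. Cox7c of complex IV was at 91.3 TPM, the lowest of the 9 widely expressed forms.

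These genes share sequence with processed pseudogenes, which are copies of spliced transcripts inserted elsewhere in the genome. The part of shared sequence in their low levels was not tested. The transcript of each member nearest to the deposited length was taken from GENCODE M21, and its words of 50 bases were looked up in all transcripts of other genes. In 43 members no word was shared, in 31 between 0 and 50% were, and in 4 more than 50% were, namely Atp5l (68.5%), Atp5g1 (56.2%), Ndufa12 (53.8%) and Atp5h (50.5%). The median level was 230, 257 and 125 TPM in these classes, of which the first holds the low tissue isoforms. Ndufs5 shared 41.2% of its words with 1 gene, the processed pseudogene BC002163. BC002163 has its own row in the table and was listed with 624 to 1091 reads per library, or 76.1 TPM. It stood at 27.4 ± 3.31 CPM in heterozygous and 25.9 ± 1.35 CPM in null pups (log2 fold change -0.08, SE 0.12).

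Cox7c shared 48.2% of its words with other genes, 39.8% with the transcribed pseudogene Gm10012 and 17.7% with the processed pseudogene Gm12338. Gm10012 had 9 to 20 reads per library, or 3.78 TPM. Gm12338 was listed at 292 TPM, with 61.3 ± 4.03 CPM in heterozygous and 61.2 ± 2.92 CPM in null pups (log2 fold change -0.002, SE 0.09). Cox7c itself was at 15.4 ± 1.59 and 13.8 ± 0.620 CPM. Atp5l shared words with 13 other genes. Atp5g2 shared 46.4% at 9.53 TPM and Ndufb4 shared 37.0%, but Uqcrb shared 43.2% at 134 TPM and Ndufa12 was at 152 TPM. How reads that fit more than 1 gene were counted is not given in the sources used here, and the levels and fold changes of these genes are uncertain. Among the counts, 6 globin genes, a family of near-identical copies, were listed at 0 in every library, while Alas2, which makes heme in red cell precursors, was at 7.45 and 5.89 CPM. The low members that shared no word were the muscle and testis isoforms, Ndufa4l2 and Atp5s.

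**Figure D5:**
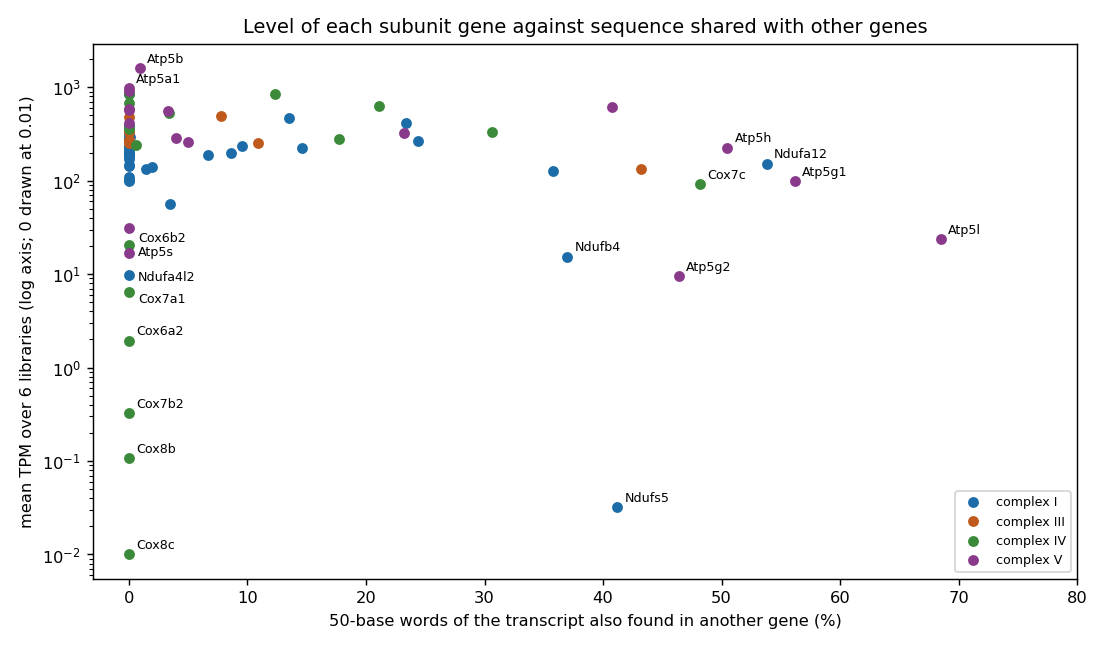
Mean level over 6 libraries in TPM (vertical log axis) against the share of a transcript's 50-base words found in another gene (horizontal axis) for the 78 symbols. Ndufs5 stands alone among sharing genes near 0, Atp5l, Atp5g2 and Ndufb4 lie below 30 TPM, and the tissue isoforms of complex IV form the low column at 0% shared.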

How the data were processed

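RNA-seq of 6 newborn mouse hemibrains was analysed, 3 per genotype. The authors deposited unnormalised read counts, 1 row per gene symbol, and a gene length in bases. Per the labels' protocols the kit was a stranded one for total RNA, whereas the series' design text speaks of poly(A) RNA, and the conflict was not resolved. Per the submitters' processing notes, CASAVA, cutadapt, STAR, MACS2, Picard and bedtools were used, with mm9 and hg19 as builds. Strand setting, annotation and counting tool: not given in the sources used here. Coordinates printed are those of RefSeq on GRCm38.p6, which is not the authors' build.

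The default filterByExpr of edgeR left 15925 of 24391 genes and 74 of 78 members. The 4 left out had at most 12 reads each. The test was edgeR's (version 4.0.16, R 4.3.3) quasi-likelihood F test with robust dispersion, TMM factors and p-values adjusted by Benjamini-Hochberg over all genes at 0.05. The standard error was taken as fold change over the root of F. CPM use TMM-scaled library sizes. The biological coefficient of variation was 13.9%, and counting error is small beside it except in genes of a few CPM. Alternatives were other scalings, filters, DESeq2 1.42.0, limma-voom 3.58.1, removal of 123 structural RNA symbols, a length offset and leaving out each library. The test was checked on simulated counts.

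The members, gene lists, roles and motifs were chosen with earlier results of these data known, so lists are given as counts and medians with no test. Named were the members with the highest and lowest fold change and the highest TPM of each complex, the 5 with the smallest p, the paralog families, those that failed the filter, and the highest and lowest gene of lists. Cox7c and the pseudogenes were named after their values were seen. The values of 1 member are not reported here.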

Additional observations from a re-analysis of the deposited data

How the results depend on the processing

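No member was called under any alternative (lowest edgeR adjusted p 0.347), and the median of the 74 genes stayed negative in all. Scaling by library size alone, which moved the median of all genes to -0.09, gave medians of -0.18 for the members, -0.18 for complex I, -0.18 for complex IV and -0.17 for complex V. The length offset gave medians of -0.037 for complex I, -0.024 for complex III, -0.028 for complex IV and -0.030 for complex V. The cause was not tested. Leaving out each library in turn, the members' median ran from -0.15 to -0.04 and the negatives from 59 to 73. Genes called lower over the whole table numbered 1, and 0 with DESeq2 size factors, the CPM minimum of 1 in 3 libraries, limma-voom, no robust dispersion or structural RNAs removed, 2 with upper-quartile factors, library size alone, no filter or the length offset, 25 with DESeq2, and 0 to 1 without single libraries. Genes called higher numbered 0, and 1 with no filter, 37 with DESeq2, and 0 to 3 without single libraries, the 3 without null pup 10. Some single-gene signs turned. With the length offset Atp5b became 0.0076, Atp5g2 0.025, Cox6b1 0.027 and Uqcr11 0.047. Leaving out single libraries, Atp5a1 ran from -0.052 to 0.018, Atp5b from -0.056 to 0.0077, Atp5g2 from -0.19 to 0.051, Cox6b1 from -0.11 to 0.00088, Ndufa4l2 from -0.26 to 0.059, Ndufb4 from -0.034 to 0.27, Uqcr11 from -0.15 to 0.090 and Celf2 from -0.18 to 0.039. No paired analysis was possible because the groups share no pup number. With 3 pups per group, shifts as small as the members' median were not called for any 1 gene.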
